A study of Mus musculus with 2 samples.

Results

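The neighbourhoods of microRNA genes were examined for open chromatin in mouse hippocampus. A neighbourhood was a GENCODE M21 gene of type miRNA on chromosomes 1 to 19, extended by 2 kb on either side, whose record lay more than 2 kb from every protein-coding transcript start. Of 2202 such genes in the annotation, 2054 lay on these chromosomes and 1592 met the distance rule. The other 462 lay within 2 kb of a protein-coding start and were left out. The rule used no measured value. The records have a median length of 94 bp and are called hairpins here.

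DNase-seq was measured in tissue labelled layer of hippocampus of B6CASTF1/J females, an F1 cross of the ages 8 to 10 months. In this assay DNase I cuts accessible DNA, sites with many cuts are listed as peaks, and short protected stretches are listed as footprints. There was 1 group with 2 libraries, numbered as biological replicates 1 and 2, each made from a pool of 2 biosamples, and no treated or control arm. Whether the animals differed between the pools is not stated in the labels, so part of the spread between libraries may be technical.

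MicroRNAs are short RNAs that guide Argonaute proteins to messenger RNAs and lower their translation or stability. They are cut from hairpins in longer transcripts, first by the Drosha and Dgcr8 complex in the nucleus and then by Dicer1 in the cytoplasm, and the bases near the 5′ end, the seed, carry most of the pairing to targets. Their promoters can lie far from the hairpin, so an open site near a hairpin may belong to a host transcript, to an enhancer or to an unrelated gene. In brain, miR-124, miR-9, miR-128 and miR-132 are well-known neuronal microRNAs.

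The mature microRNAs at the loci that the results turn on are given from RefSeq (GRCm38.p6), with the seed, bases 2 to 8, in capitals. RefSeq entries matched 651 of the 1592 members and 127 of the 228 open in both libraries. The miR-132 and miR-212 lines show the same seed, and so do the miR-344 and miR-344c lines, whereas miR-344f differs from these within the seed.
miR-132-3p: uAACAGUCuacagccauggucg
miR-212-3p: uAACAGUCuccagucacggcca
miR-9-5p: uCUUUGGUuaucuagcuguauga
miR-344-5p: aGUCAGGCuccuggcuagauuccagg
miR-344c-5p: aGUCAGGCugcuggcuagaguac
miR-344f-5p: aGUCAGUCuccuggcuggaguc
miR-129-5p: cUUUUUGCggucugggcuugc
miR-128-3p: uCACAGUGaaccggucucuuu
let-7i-5p: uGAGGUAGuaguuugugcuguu

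Open peaks of 1 or both libraries beside 5 neuronal microRNA loci held the cyclic AMP response element (CRE). This is the word TGACGTCA, which CREB-type factors bind. The DNA is shown for all but Mir124a-3, whose peak with a CRE was called in replicate 2 and is the longest. It is given in mm10 on the strand of the hairpin, with the CRE in capitals. The Mir132 peak lay at chr11:75173581-75173880 and the weaker Mir212 peak at chr11:75173181-75173460, both on the plus strand and from replicate 1. The Mir9-3 peak was chr7:79504761-79504980 and the Mir124a-2 peak chr3:17793701-17793960, both on the plus strand and from replicate 1. The Mir9-1 stretch, chr3:88214223-88214440 on the plus strand, is what the peaks of both libraries had in common. In all, 6 neighbourhood peaks of replicate 1 (1.73%) held a CRE, against 0.904% of all its autosomal peaks. In replicate 2 these were 4 (1.04%), against 0.707%, so not every CRE shown lay in a peak of both libraries.
Mir132 peak: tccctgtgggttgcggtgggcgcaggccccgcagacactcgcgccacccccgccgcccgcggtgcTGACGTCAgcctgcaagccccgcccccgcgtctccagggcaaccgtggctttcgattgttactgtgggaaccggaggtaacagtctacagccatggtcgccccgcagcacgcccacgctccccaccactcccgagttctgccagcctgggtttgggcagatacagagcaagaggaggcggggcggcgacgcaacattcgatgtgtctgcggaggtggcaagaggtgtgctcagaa
Mir212 peak: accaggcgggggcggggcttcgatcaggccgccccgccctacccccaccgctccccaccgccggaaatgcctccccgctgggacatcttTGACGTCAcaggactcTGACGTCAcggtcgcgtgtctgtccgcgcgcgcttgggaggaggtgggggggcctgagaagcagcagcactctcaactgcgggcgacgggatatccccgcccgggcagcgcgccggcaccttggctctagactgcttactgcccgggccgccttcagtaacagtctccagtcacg
Mir9-3 peak: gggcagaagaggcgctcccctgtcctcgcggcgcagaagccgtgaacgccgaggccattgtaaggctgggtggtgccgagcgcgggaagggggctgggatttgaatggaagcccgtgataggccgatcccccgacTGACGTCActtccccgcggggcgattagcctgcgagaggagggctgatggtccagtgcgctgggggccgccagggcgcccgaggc
Mir9-1 peak: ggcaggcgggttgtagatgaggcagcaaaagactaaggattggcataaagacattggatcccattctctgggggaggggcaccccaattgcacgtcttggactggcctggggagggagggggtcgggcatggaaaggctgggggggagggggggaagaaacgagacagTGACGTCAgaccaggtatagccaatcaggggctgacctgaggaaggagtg
Mir124a-2 peak: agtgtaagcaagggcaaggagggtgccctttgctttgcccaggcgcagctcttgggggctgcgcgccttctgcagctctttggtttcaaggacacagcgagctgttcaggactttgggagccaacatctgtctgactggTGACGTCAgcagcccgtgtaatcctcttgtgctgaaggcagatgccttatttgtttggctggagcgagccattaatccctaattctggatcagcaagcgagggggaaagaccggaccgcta

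At 5 members of the Mir344 cluster, footprints of both libraries fell on the same bases inside the hairpin. The hairpins are shown because most of these protected bases lie on or after the 5p seed, and capitals mark the bases that both libraries listed. All are on the minus strand of mm10, at chr7:61877770-61877864 (Mir344), chr7:61940027-61940106 (Mir344-2), chr7:61837311-61837402 (Mir344c), chr7:62046181-62046248 (Mir344f) and chr7:62085223-62085310 (Mir344i).
Mir344: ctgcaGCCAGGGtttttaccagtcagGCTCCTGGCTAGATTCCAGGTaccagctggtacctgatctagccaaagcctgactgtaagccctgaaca
Mir344-2: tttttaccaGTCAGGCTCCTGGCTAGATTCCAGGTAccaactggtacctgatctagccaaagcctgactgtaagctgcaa
Mir344c: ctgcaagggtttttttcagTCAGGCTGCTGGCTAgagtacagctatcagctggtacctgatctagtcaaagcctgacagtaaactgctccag
Mir344f: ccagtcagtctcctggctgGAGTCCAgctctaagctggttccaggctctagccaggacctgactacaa
Mir344i: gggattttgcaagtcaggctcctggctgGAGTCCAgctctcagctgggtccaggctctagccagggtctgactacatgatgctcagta

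Another 2 records carried footprints of both libraries over several stretches, and capitals again mark the common bases. They are Mir1983, chr13:21896918-21897049 on the minus strand, and n-TStga1, chr13:23518142-23518250 on the plus strand.
Mir1983: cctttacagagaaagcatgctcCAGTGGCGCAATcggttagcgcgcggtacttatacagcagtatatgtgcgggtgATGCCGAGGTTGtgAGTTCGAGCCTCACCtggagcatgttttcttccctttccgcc
n-TStga1: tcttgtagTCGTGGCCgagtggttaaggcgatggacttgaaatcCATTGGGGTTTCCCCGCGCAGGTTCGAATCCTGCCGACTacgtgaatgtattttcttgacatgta

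Replicate 1 listed 98902 peaks and 244447 footprints, and replicate 2 listed 130199 peaks and 251726 footprints. Of promoters of hippocampal marker genes, all 5 of the neuronal list had a peak within 500 bp of a start in both libraries, as did 3 of 4 for dentate granule cells, 2 of 3 for CA1 and 2 of 3 for CA3 and CA2. For other cells of the tissue, 3 of 4 astrocyte, 3 of 4 oligodendrocyte and 1 of 4 microglial promoters were open in both. So were 1 of 3 endothelial and 1 of 3 choroid plexus and ependymal promoters. A promoter peak in both libraries was present at 59.2% of all protein-coding genes, so these small counts do not show which cells were present. None of 2 liver and 2 skeletal muscle promoters had a peak in both. Peak signal is the height the authors deposited, and the sources used here do not give its scale. In bulk tissue, openness in fewer cells and less openness per cell cannot be told apart.

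A peak in both libraries was found in 228 of the 1592 neighbourhoods, a share of 14.3% (Wilson 95% interval 12.7 to 16.1, for counting error only). Windows of the same length without a protein-coding start were open in both libraries in 9.6% of cases. Among those windows, the share was 11.4% inside protein-coding genes and 8.46% outside them. Under the same distance rule, snRNA genes reached 11.2% and snoRNA genes 9.73%. A further 29 neighbourhoods had a peak only in replicate 1 and 92 only in replicate 2, which also had more peaks in all, and 1243 had none. Of these 1243, 1199 held no base with a listed false discovery rate below 0.05 in either library. Fewer than 50% of the 31-base words occurred once in the genome at 157 of the 1243, and at 4 of the 228 open in both. Among 950 members with at least 90% of words occurring once, 188 (19.8%) were open in both. The part of read placement in these counts was not tested. Neighbouring hairpins share peaks, and after joining overlapping neighbourhoods 202 of 1332 loci (15.2%) were open in both. The members that the distance rule left out were open more often, in 231 of 462.

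The curated microRNAs, whose symbols begin with Mir, were open in both libraries in 143 of 780 neighbourhoods (18.3%, interval 15.8 to 21.2). Records with other symbols, mostly automatic models, were open in 85 of 812 (10.5%, interval 8.55 to 12.8), near the 9.6% of windows. Counted as joined loci, 121 of 596 with a Mir-named member were open and 81 of 736 without one. GC content differed too, with a median of 46.2% in Mir-named neighbourhoods and 41.2% in windows. In the most GC-rich quintile of windows, 19.9% of windows and 24.5% of Mir-named members were open in both. From the most GC-poor quintile upward, the shares of windows and of Mir-named members were 3.41% and 18.1%, 4.89% and 4.46%, 7.70% and 11.5%, and 12% and 14.1%. The difference was widest in the most GC-poor quintile, where 13 of 72 Mir-named members were open. Beyond these strata the part of GC content in the difference was not tested. The part of repeated sequence in the difference was not tested either.

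Hairpins hosted by long noncoding RNA genes were open most often among the Mir-named members. Of 117 lying in such a gene on the same strand, 44 (37.6%, interval 29.4 to 46.6) were open in both libraries, against 11.1% of windows inside lncRNA genes and outside protein-coding genes. The Mir344 cluster supplied several of these, and without it 36 of 108 (33.3%) were open. Neighbouring hairpins of a host can share a peak. They were counted here as separate members and not as joined loci, and the interval treats them as separate. Hairpins in introns of a protein-coding gene on the same strand were open in 47 of 336 (14.0%), and those in its exons in 5 of 58 (8.62%). For Mir-named members in a coding gene on the other strand the count was 14 of 74 (18.9%), and outside coding and lncRNA genes 32 of 188 (17.0%).

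**Figure D1:**
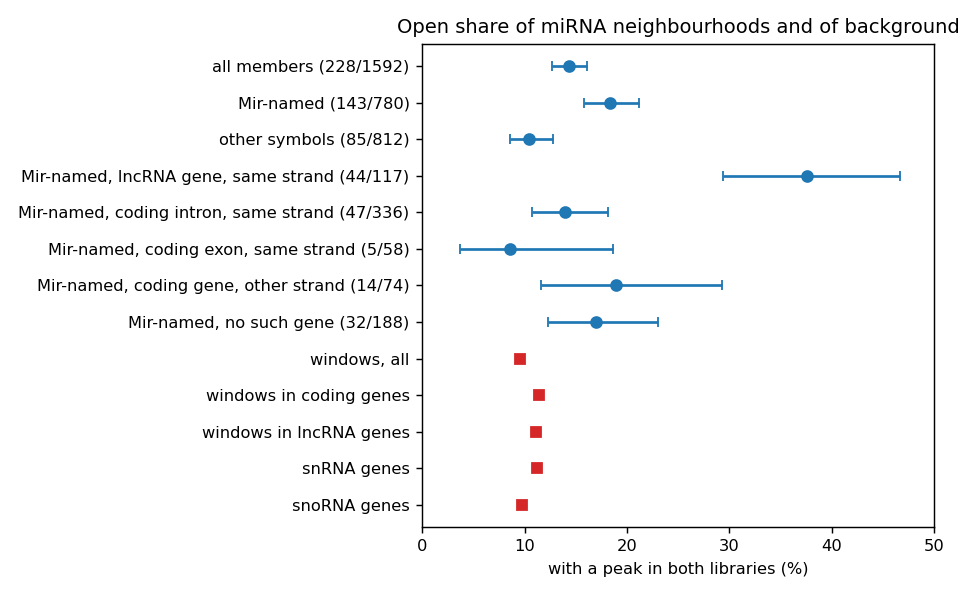
Share of neighbourhoods with a peak in both libraries (x axis, percent) for all members, for Mir-named and other symbols, and for Mir-named members by host gene. Circles with bars are shares with Wilson 95% intervals, and squares are background shares. Mir-named members inside lncRNA genes stand at 37.6%, and windows at 9.6%.

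The neuronal microRNA list had 61 members, of which 30 were open in both libraries (49.2%), against 14.3% of all members and 18.3% of Mir-named ones. They stood at 25 of 50 joined loci, against 15.2% of all joined loci. This list and those below were put together with earlier results of these data known, so their counts are descriptions. The median signal of all 228 open members was 0.821 in replicate 1 and 0.998 in replicate 2, and the open neuronal members ran from 0.297 to 4.21 in replicate 1. Without the Mir344 cluster 18 of 48 were open (37.5%). All 3 Mir9 genes and all 3 Mir124a genes were open, while the Mir29 and Mir30 members of the list had no peak in either library.

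The Mir212 and Mir132 pair, whose microRNAs share the seed AACAGUC and respond to neuronal activity, shared the highest signal of the list. The signal was 4.21 in replicate 1 and 4.17 in replicate 2, a mean of 4.19 ± 0.0258 (SD, n = 2). The peak lay on the Mir132 hairpin itself in both libraries, chr11:75173682-75173747 in the lncRNA gene 1700016P03Rik. The CRE of its replicate 1 peak ended 28 bases before that hairpin. The second peak of replicate 1, with a signal of 1.73, held a pair of CRE words ending 110 and 94 bases before Mir212. No footprint of either library covered the CRE beside Mir132, and 1 of those beside Mir212 was covered by 7 bases of a footprint in replicate 1.

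The Mir9 genes encode miR-9, which acts in neural progenitors and neurons. Mir9-3 had 2.94 in replicate 1 and 2.97 in replicate 2, a mean of 2.96 ± 0.0207 (SD, n = 2). The CRE of its replicate 1 peak, 360 bases before the hairpin, was covered in full by a footprint in both libraries. Mir9-2 had 2.93 and 2.66, with a peak about 1056 bases 3′ of the hairpin. Mir9-1 was lower, at 1.48 and 1.36, and its CRE lay 1199 bases 5′ of the hairpin with no footprint in replicate 1 and 5 of its bases in one in replicate 2. The libraries gave the same order of Mir9-2 and Mir9-3 above Mir9-1.

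The Mir124a genes encode miR-124, a microRNA abundant in neurons. Mir124a-3 had 2.68 in replicate 1 and 3.63 in replicate 2, a mean of 3.16 ± 0.666 (SD, n = 2), over 6 and 5 peaks. Mir124a-1 had 1.16 and 1.26, and Mir124a-2 had 1.13 and 0.994. The CRE at Mir124a-2 lay 1814 bases before the hairpin and was covered in full by a footprint in replicate 1 only. Replicate 1 called 9 peaks and replicate 2 only 1 in the joined neighbourhood of Mir124a-1 and Mir3078.

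Over all 346 neighbourhood peaks of replicate 1, 6 held a CRE on either strand (1.73%), against 0.904% of all autosomal peaks. In replicate 2 there were 4 of 384 (1.04%) against 0.707%. The peaks not yet described were at Gm47299 in replicate 1 and Mir124a-3 in replicate 2. The counts are small, and the interval of replicate 1, 0.797 to 3.73%, includes the share of all peaks. The AP-1 word TGANTCA was in 9.54% and 10.2% of neighbourhood peaks, against 9.30% and 10.3% of all peaks. The CTCF core AGGGGGCGC was in 0.289% and 0.521%, against 1.36% and 1.24%. For the REST words TTCAGCACC and GGACAG the shares in replicate 1 were 0.289% and 19.9%, against 0.363% and 16.1%. For the bHLH word CAGATG they were 25.4% against 25.3%, and for the RFX word GTTGCCA 2.89% against 4.96%. Words were counted on both strands, and TTCAGCACC and GGACAG belong to 1 element. A match is a description of letters and says nothing of binding.

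Among the other neuronal members, Mir125b-2 had 2.41 in replicate 1 and 2.12 in replicate 2, and Mir125b-1 had 1.62 and 1.66. Mir7b, Mir129-2 with its antisense record Mir129b, Mir128-2 and Mir129-1 had means from 0.989 to 1.53. Mir128-2 had its peak on the hairpin, with 1.14 and 1.05. Mir135b and the pair Mir181a-1 and Mir181b-1 were lower, at means of 0.799 and 0.427. In all, 3 list members had a peak only in replicate 1, namely Mir135a-2, Mir137 and Mir139, and 2 only in replicate 2, namely Mir101a and Mir138-2.

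**Figure D2:**
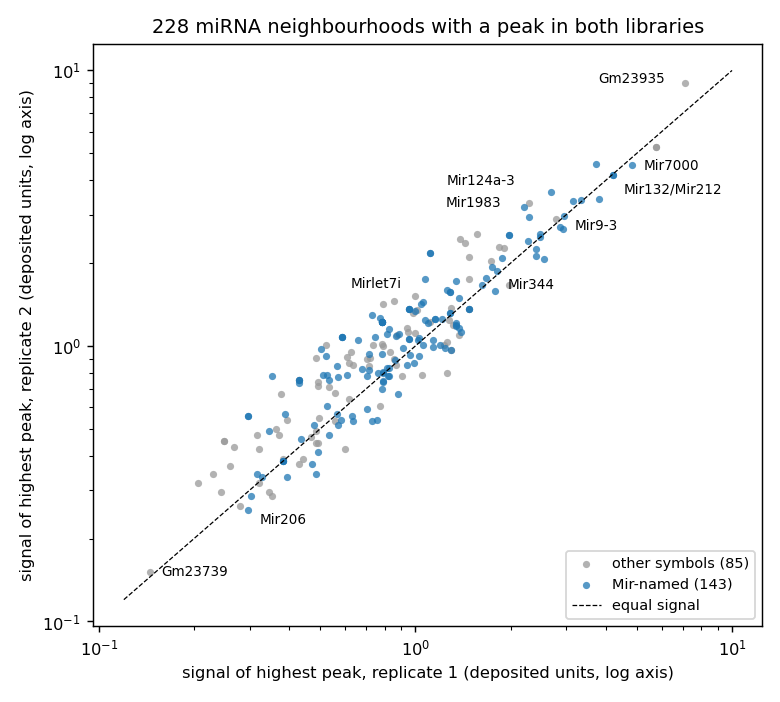
Signal of the highest peak in replicate 1 (x axis) and replicate 2 (y axis), both on log axes in deposited units, for 228 neighbourhoods open in both libraries. Points are members, 143 Mir-named and 85 with other symbols, and the dashed line marks equal signal. Points follow the line, with a median log2 ratio of 0.14 and a range from -0.66 to 1.15.

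The log2 ratio of replicate 2 to replicate 1 over the 228 open members had a median of 0.14, and 153 were higher in replicate 2. When the signal was divided by each library's median over shared peaks the ratio was -0.13, so its direction depends on the scaling. Of the 346 neighbourhood peaks of replicate 1, 73.1% overlapped a peak of replicate 2, against 81.6% of all peaks. Of the 384 of replicate 2, 66.1% overlapped a peak of replicate 1, against 62.0%. Peaks that were shared had a median signal of 0.788 and 0.918, and those that were not shared 0.418 and 0.441.

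The Mir344 cluster on chromosome 7 had 13 members within 402 kb, and 12 were open in both libraries, against 14.3% of all members. These 12 are not separate open sites. Mir344d-1 and Mir344d-2 shared their highest peak, and Mir344h-1 and Mir344h-2 lay in the same joined locus. Mir344e was the exception. The hairpin itself was touched by a peak in both libraries at 7 members, against 1.88% of all members. These were Mir344, Mir344c, Mir344g, Mir344d-3, Mir344d-1, Mir344f and Mir344i. The midpoint of the highest peak lay within 150 bp of the hairpin at 10 of the 12 in each library. Mir344 was highest, with 1.81 in replicate 1 and 1.87 in replicate 2, a mean of 1.84 ± 0.0446 (SD, n = 2), and Mir344-2 had 1.79 and 1.58. Mir344c had 1.35 and 1.21, and Mir344g had 1.04 and 1.42. The lowest, Mir344h-2, had 0.303 and 0.286.

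Counting from the first base of each record, the common footprint of Mir344 covered bases 27 to 47 and that of Mir344-2 bases 10 to 36. In Mir344c it covered bases 20 to 34. The letters GTCAG, which begin the seed of miR-344-5p, start at base 22 in Mir344, at base 10 in Mir344-2 and at base 19 in Mir344c. The shorter common footprints of Mir344f and Mir344i covered bases 20 to 26 and 29 to 35, in both cases from 16 to 22 bases after the start of GTCAG. A second common footprint in Mir344 covered bases 6 to 12, before GTCAG. The copies resemble each other, so a share of the 31-base words of their highest peaks occurs more than once in the genome. Every such word of the Mir344c, Mir344g and Mir344f peaks occurred once, whereas at Mir344h-2 only 41.6% in replicate 1 did. Inside the hairpins of Mir344 and Mir344-2, which held the longest common footprints, 60% and 72% of words occurred once. At Mir344-2 the replicate 2 footprint lay outside the nearby peak of that library, which covered bases -93 to -34. The members of the cluster are related copies and not independent observations. A read from 1 copy can be placed on another, and the part of this in the peaks was not tested.

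**Figure D3:**
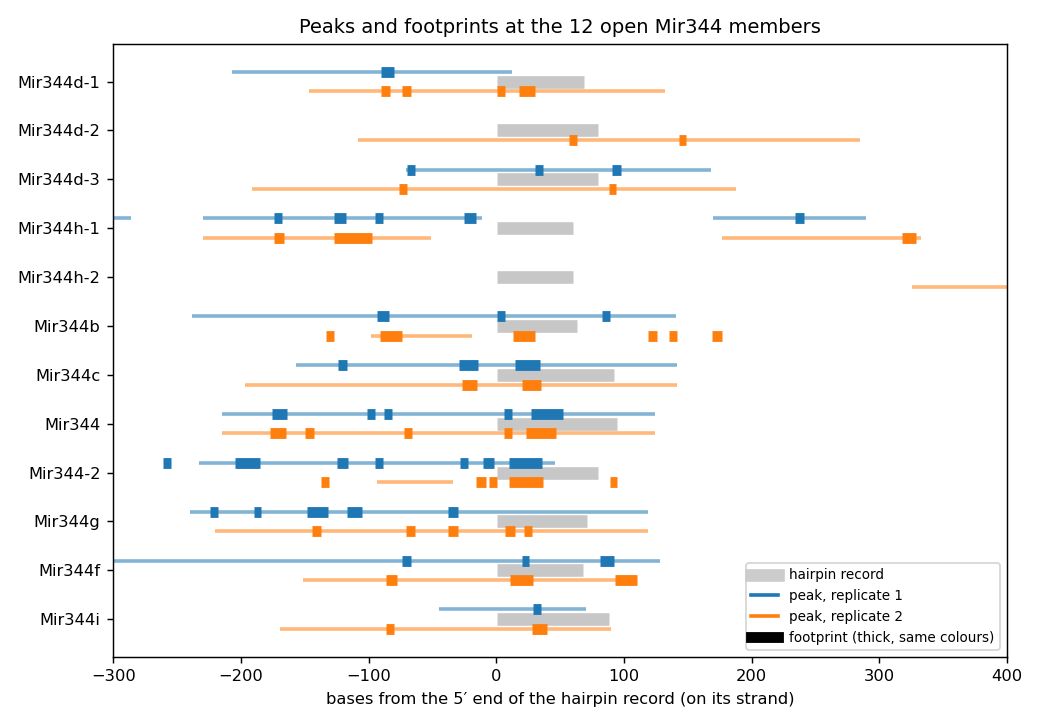
Peaks (thin lines) and footprints (thick bars) of replicate 1 (blue) and replicate 2 (orange) at the 12 open Mir344 members, with the hairpin record in grey. The x axis gives bases from the 5′ end of the record on its own strand. Peaks span the hairpin or end just 5′ of it at most members, and footprints of both libraries overlap inside 5 records.

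Peaks touched the hairpin in both libraries at 30 of 1592 members (1.88%), against 0.655% for the middle of windows over a hairpin's length. Counted by peak midpoint, 7 hairpins (0.440%) were touched in both, and windows were not counted in that way. Of the 30, 25 were Mir-named among 780 (3.21%, interval 2.18 to 4.69) and 5 carried other symbols among 812 (0.616%). Without the Mir344 cluster, 18 of 767 Mir-named hairpins were touched (2.35%). In 100 bp bins, the highest share of Mir-named members with a peak within 200 bp of the hairpin's middle was 5.0% in replicate 1 and 5.64% in replicate 2. Beyond 1000 bp the median bin held 1.99% and 1.86%, and the highest bin 3.21% and 2.69%. Without the cluster the highest bins were 4.04% and 4.30% within 200 bp, and 3.26% and 2.74% beyond 1000 bp. Records with other symbols did not reach above 1.35% and 1.97% within 200 bp. Their highest bins beyond 1000 bp were above these, at 1.48% and 2.22%. Each neighbourhood peak was at a median distance of 883 bp from its hairpin in replicate 1 and 852.5 bp in replicate 2.

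**Figure D4:**
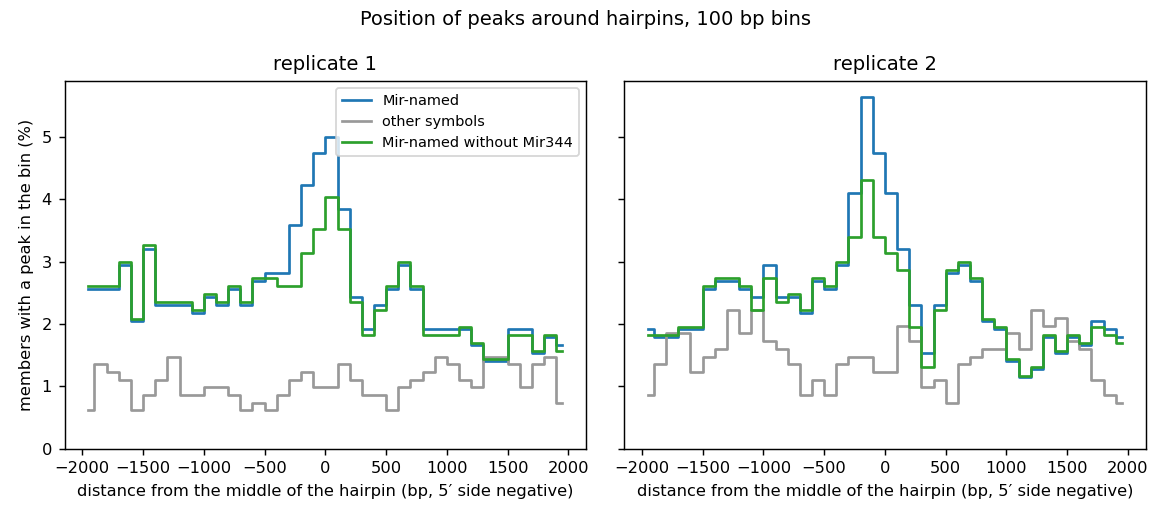
Share of members with a peak (y axis, percent) in 100 bp bins around the middle of the hairpin (x axis, bp, 5′ side negative), for replicate 1 and replicate 2. Lines are Mir-named members, the same without the Mir344 cluster, and records with other symbols. The Mir-named line is highest at the hairpin in replicate 1 and in the bin from 200 to 100 bp 5′ of its middle in replicate 2, and it stays above the grey line there without the cluster.

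Ranked by the signal of the peak on the hairpin itself, the 10 highest touched hairpins were led by Gm23935, with 7.12 and 8.99. Only 17.9% of the 31-base words of its replicate 1 peak and 4.17% of its replicate 2 peak occurred once in the genome, and it lies in the coding gene Zc3h7a on the other strand. After Mir132, n-TStga1 had 2.28 and 3.30 and Mir1983 had 2.28 and 2.93. Next came Mir344, Mir344c, Mir7671 with 1.35 and 1.18, Gm24270 with 1.28 and 1.24, Mir344g, and Mir128-2. Of the words of the Gm24270 peak, 23.0% occurred once in both libraries. The remaining touched hairpins included Mirlet7i, Mir3086, Mir7239, Mir6403, Mir1962, Mir7655, Mir6387, Mir7685, Mir6353, Mir7243, Mir8095, Mir1932 and Mir8100.

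Both n-TStga1, a serine transfer RNA gene by its symbol, and Mir1983 held the word GTTCGANNC of the B box, an internal promoter element of transfer RNA genes. In n-TStga1, 39 bases from base 45 to base 83 were common to footprints of both libraries. In Mir1983, bases 23 to 34, 77 to 88 and 91 to 105 were. Only 29.1% of the 31-base words inside the n-TStga1 record occurred once in the genome, and 74.5% of those inside Mir1983. The part of read placement in these footprints was not tested. The word was searched on both strands and found in 40 of 1592 hairpins (2.51%) and in in the middle of 0.335% of 54264 windows taken at regular steps. It was in 0.551% of all peaks in replicate 1 and 0.462% in replicate 2. Among these 40 hairpins, n-TStga1 and Mir1983 were those touched by a peak and holding a footprint in both libraries.

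A footprint in both libraries was found in 194 of the 1592 neighbourhoods (12.2%), against 7.48% of windows. All 194 were among the 228 with a peak in both. Footprints of the 2 libraries overlapped in 154 of the 228. Inside hairpins, the same bases were protected in both libraries at 11 members, of which 5 belonged to the Mir344 cluster.

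Of the 15 joined loci of highest signal, Mir212 with Mir132, Mir124a-3, Mir9-3, Mir9-2 and n-TStga1 are described above. After Gm23935 came the joined Gm47299 and Gm47305, with 5.76 and 5.30, whose peak covers Rn7s2, a gene of the 7SL RNA. Mir7000, an intronic hairpin of Mapk8ip1, had 4.85 and 4.56, a mean of 4.70 ± 0.206 (SD, n = 2), with the midpoint of the peak 2045 bases 5′ of the hairpin. Mir6376 had 3.71 and 4.59 at a distance of 1953 bases, and Mir210, a hypoxia-induced microRNA, had 3.80 and 3.41 at 448 bases. Mir6976, in an intron of Srf, had 3.34 and 3.40, and Mir8111 had 3.14 and 3.36. Below them Gm22328 in Foxp1 had 2.78 and 2.89, Mir7655 had 2.86 and 2.70, and Mir5103 had 2.20 and 3.19.

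The imprinted Dlk1-Dio3 cluster carries a large group of microRNAs in maternally expressed noncoding RNAs. Of 58 list members, 1 was open in both libraries, 13 only in replicate 2 and 44 in neither. Over all members 14.3% were open in both and 5.78% only in replicate 2. The open one was Mir3072 in Mirg, with 1.67 and 1.77. Several of the 13 shared a peak, as Mir434, Mir3071 and Mir136 did with 0.477 in replicate 2. The 58 members make up 12 joined loci, 1 of them open, against 15.2% of all joined loci. Mir1906-1 in Meg3, which is not on the list, had 2.41 and 2.24. The words of these neighbourhoods were mostly single-copy, with a median of 99.0% occurring once.

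Of 13 members of a list of glial microRNAs, 7 were open in both libraries, at 4 of 9 joined loci, against 14.3% of all members. Mir338, which promotes oligodendrocyte maturation and lies in Aatk together with Mir3065, had 1.98 and 2.54. The Mir219a-2 and Mir219b pair, also tied to oligodendrocytes, had 0.957 and 1.06. Mir143 and Mir145a, which are on the list but best known from smooth muscle and pericytes, had 1.29 and 1.32, and Mir27a with Mir24-2 had 0.957 and 1.36. The joined locus of the latter also holds Mir23a and Mir3074-2.

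Of 9 let-7 members, 1 (11.1%) was open in both libraries, against 14.3% of all members. The 9 members make up 6 joined loci, 1 of them open, against 15.2% of all joined loci. The open member was Mirlet7i, with 1.05 and 1.44, and a weaker peak of 0.709 and 0.771 on the hairpin. All 6 members of the mir-17-92 list, a cell proliferation cluster made from Mir17hg, shared 1 locus with 0.782 and 1.22. These were Mir17, Mir18, Mir19a, Mir20a, Mir19b-1 and Mir92-1. Of 10 heart and skeletal muscle members 4 were open at 2 of 7 joined loci, all low. Mir1a-2, Mir1b and Mir133a-1 had 0.382 in both libraries, and Mir206 had 0.297 and 0.254. Of 11 stem cell and germline members, Mir293, Mir294 and Mir295 were open at 1 of 2 joined loci, with 0.588 and 1.07. None of 7 blood and immune and none of 22 epithelial and endocrine members was open in both libraries, against 14.3% of all members. These make up 4 and 14 joined loci. The endothelial list had no member that met the distance rule.

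The list of the Sfmbt2 intron and its relatives had 81 members, which are many near-identical copies. Of these, 3 (3.70%) were open in both libraries, against 14.3% of all members. The 81 members make up 11 joined loci, of which 3 were open, against 15.2% of all joined loci. None of the 3 lies in Sfmbt2: Mir466k is on chromosome 3, and Mir466i and Mir466f-4 are on chromosome 13. Mir466k had 2.54 and 2.07, Mir466i had 0.503 and 0.978, and Mir466f-4 had 0.509 and 0.787. A median of 65.5% of the words of these neighbourhoods occurred once in the genome, and the part of read placement in these counts was not tested.

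**Figure D5:**
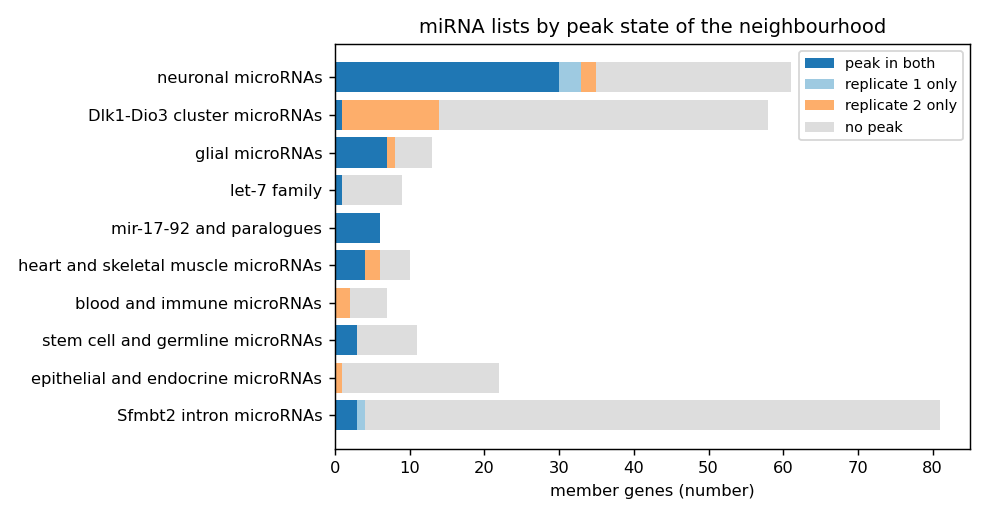
Number of member genes (x axis) in each microRNA list by the state of the neighbourhood, as a peak in both libraries, in replicate 1 only, in replicate 2 only or in neither. The neuronal list has 30 of 61 members open in both, and the Dlk1-Dio3 list has 1 of 58.

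Grouped by seed, the 7 genes with the miR-344 5p seed GUCAGGC were all open, as were the 3 genes with the miR-9-5p seed CUUUGGU. The 2 genes of miR-129-5p, the 2 of miR-148 and the 2 of the miR-132 seed were also all open. Of 10 genes with the let-7 seed GAGGUAG, 1 was open, and of 6 with the miR-181 seed ACAUUCA, 2 were. Only seeds of at least 2 genes with at least 1 open in both libraries were listed. Most listed seeds of 2 genes had 1 open, and over all members the open share was 14.3%. The Mir344 genes are related copies, and Mir132 and Mir212 share their highest peak.

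The other Mir-named members open in both libraries are named here by host. In lncRNA genes on the same strand, mean signals ran from 0.276 to 4.19 with a median of 1.05. Besides the members above these were Mir6343, Mir7211, Mir6516, Mir7214, Mir7218, Mir1897, Mir3093 and Mir100. Mir3093 shares a joined locus with Mir9-1 and Gm25641. In introns of protein-coding genes on the same strand, mean signals ran from 0.364 to 4.70 with a median of 0.860. They were Mir6897, Mir26b, Mir6352, Mir6345, Mir1929, Mir1191b, Mir6917, Mir7651, Mir6923, Mir3971, Mir8103, Mir7235, Mir874, Mir449a, Mir449b, Mir346, Mir6391, Mir151, Mir3080, Mir148b, Mir6540, Mir378a, Mir694, Mir1192, Mir3088, Mir7015, Mir7020, Mir7048, Mir7056, Mir6769b, Mir7074 and Mir7077. In exons they were Mir22, Mir1249, Mir5114, Mir705 and Mir1966. In a coding gene on the other strand they were Mir6346, Mir5110, Mir7223, Mir6360, Mir6340, Mir1905 and Mir199a-1. Outside such genes they were Mir1928, Mir7688, Mir193a, Mir187, Mir130a, Mir3089, Mir1952, Mir8120, Mir7230, Mir148a, Mir1969 and Mir6361. The joined locus of Mir7218 also holds Mir7217, that of Mir206 Mir133b, that of Mir293 to Mir295 the other miR-290 genes, and that of Mir378a Gm25301.

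Loci open in 1 library reached lower signals than the highest shared ones. In replicate 1 alone, Mir3083 had 1.05 over 9 peaks, Mir139 had 0.879 and Mir5112 had 0.721. In replicate 2 alone, Gm25993 had 1.503, the joined Gm25732 and Gm24245 had 0.811, and Mir7228 had 0.779. The most peaks were found at Mir124a-3, Mir124a-1, n-TStga1 and Mir3083, followed by Mir378a with 5 and 3 and Mirlet7i with 4 and 4.

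Members that only just met the rule of more than 2 kb were Mir22 at 2001 bp, with 0.988 and 0.867, Mir338 at 2010 bp and Mir6968 at 2012 bp, with 0.467 in replicate 1 only. Genes that only just failed it were Gm24589 at 1984 bp with 0.763 and 0.636, Gm47284 at 1979 bp with 0.606 and 0.461, and Gm22760 at 1977 bp with 1.38 and 0.342.

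The genes that make and use microRNAs were mostly open at their promoters. Of 32 such genes, a peak at the promoter was present in both libraries at 28 (87.5%). Over all protein-coding genes the share was 59.2%. Drosha and Dgcr8, which cut the primary transcript, had 6.13 and 7.01, and 4.96 and 5.53. Xpo5, which exports the hairpin, had 2.24 and 2.84. Dicer1 had 3.65 and 4.45, and its partner Tarbp2 had 13.2 and 9.44, the highest of the list in both libraries. Among the Argonaute genes, Ago1 had 2.94 and 4.13, Ago2 had 2.70 and 3.07, and Ago3 had 2.42 and 2.81, while Ago4 had 0.430 in replicate 1 and no peak in replicate 2. Of the silencing partners, Tnrc6c had 9.49 and 8.13, Tnrc6b 7.39 and 7.24 and Cnot1 6.46 and 7.28. Lin28a, which blocks let-7 processing in embryonic cells, had no peak, and Lin28b had 0.473 and 0.453. Mov10 had a peak in replicate 1 only and Trim71 in replicate 2 only.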

How the data were processed

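DNase-seq of hippocampus was analysed in 2 libraries of 1 group, each with 2 lists of peaks, 1 of footprints and 1 of intervals carrying a false discovery rate. Per the deposited notes, these come from the mm10 alignments of each library separately. The sources used here do not give the aligner, the caller or their versions. The deposited signal is a peak height whose scale the authors' files do not state, so it was described and not tested. The deposited false discovery rates and the footprint threshold are p-value type units, listed below 0.05 and at 0.01. The larger peak list was the main one.

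Peaks overlapped a neighbourhood with at least 1 bp, and the highest peak gave the signal. Genes were GENCODE M21. Background windows of 4094 bp without a protein-coding start tiled chromosomes 1 to 19. The members and lists were chosen with earlier results of these data known. Named loci were those of highest signal, those with a touched hairpin, list leaders, loci of 1 library or with most peaks, and neighbours of the 2 kb distance, where Mirlet7i tied with Mir378a for the last of 5 places by number of peaks. The B box word was chosen after seeing the data. Ratios are on the log2 scale and computed from the deposited signal. Words of 31 bases were counted over the genome on both strands. The mice are a strain cross and the alignments are to the reference genome, and what this does to the peaks was not tested. Overlap code was tested on simulated data and against bedtools 2.31.1, with Python 3.11.15, pandas 2.3.3 and pysam 0.24.0. Wilson 95% intervals cover counting error only. Alternatives are given in the closing section.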

Additional observations from a re-analysis of the deposited data

Results flagged for a closer look

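Members on chromosomes X and Y were outside the main measurement. Under the same distance rule, 5 of 137 miRNA genes there (3.65%) had a peak in both libraries. This share lay below the 14.3% of autosomal members and the 9.6% of autosomal windows. Background windows on X and Y were not counted, so whether these genes differ from the rest of X and Y was not tested. The open genes included Gm25246, with 0.370 in replicate 1 and 0.732 in replicate 2, and Gm27828, with 0.388 and 0.493. Mir767 and Mir105 had 0.400 and 0.684 from 1 shared peak, and Gm26318 had 0.345 and 0.382. All 5 lie on X.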

How the results depend on the processing

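The counts of open members depend on how peaks and distances are set. With the stricter peak list, 141 members, 123 joined loci, 19 hairpins, 91 Mir-named and 50 other members were open in both libraries, and 29057 windows. With the 50000 highest peaks per library these were 148, 130, 17, 100 and 48, and 23424 windows. A flank of 1 kb left 141 members and 44 with other symbols, and one of 5 kb gave 486 members, 431 loci, 283 Mir-named and 203 others. Peak midpoints touched 7 hairpins. A reciprocal overlap of 0.5 lowered the shared peaks to 57.2% and 51.8%. The log2 signal ratio between libraries became -0.13 after scaling by the library median, and the cause was not tested. Without the Mir344 members, added after seeing the data, 216 members and 23 hairpins were open and 18 neuronal members. Among the 950 members with at least 90% of words occurring once, also added after seeing the data, 188 members and 24 hairpins were open.

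With 1 library left out, open members ranged from 257 to 320, loci from 230 to 278, hairpins from 40 to 44, Mir-named from 163 to 194, others from 94 to 126, footprint neighbourhoods from 236 to 257, pathway promoters from 29 to 30 and windows from 58860 to 82449. The Mir-named share exceeded the other share in each of these settings that split them. No paired analysis was possible because the design has a single group.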
